A study of Mus musculus with 6 samples.

Results

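The 10 genes described here are actins and actin-like genes of the mouse: the cytoplasmic actins Actb and Actg1, the smooth muscle actins Acta2 and Actg2, and the testis actin-like genes Actl7a, Actl7b, Actl9, Actrt1, Actrt2 and Actrt3. They were taken by symbol from the 54532 genes of the deposited table, and all 10 had a row. The question put to them was whether Actg2 goes with the actins of germ cells or with those of peritubular myoid cells, the contractile cells around the seminiferous tubules. The genes were chosen by their measured differences between knockout and control in these libraries, so their values in that comparison are given as a description with no test.

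Actin is the protein of microfilaments. Every cell makes the beta and gamma cytoplasmic forms, whereas alpha and gamma smooth muscle actin build the contractile apparatus of smooth muscle; Acta2 is the usual marker of peritubular myoid cells and of vessel walls. Mammalian germ cells carry a further set of actin-like genes that are largely restricted to the testis and whose proteins sit in the developing sperm head, around the acrosome and in the perinuclear theca. A transcript of the smooth muscle gene Actg2 has been described in postmeiotic male germ cells of mice.

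RNA was sequenced from mouse testis cells labelled STRA8+, STRA8 being a protein of germ cells that enter meiosis. There were 2 groups of 3 libraries each. The control libraries had the genotype Cre and the others the genotype knockout. Every library, controls included, carries the treatment label conditional knockout, and the deleted gene, the Cre line, the strain and the age are not named. The study's title names BCAS2 and hnRNPH1, and Bcas2 had 19.3 to 20.5 FPKM in the controls, against 4.38 to 5.40 FPKM in the knockout. Hnrnph1 had 61.2 to 67.5 FPKM in the controls, against 128.8 to 155.8 FPKM in the knockout. FPKM divides the fragments of a gene by its length in kilobases and by a library divisor. The labels' extraction text speaks of retinas, while the tissue is given as testis and the cells as germ cells.

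Reads assigned to genes, as recovered from the FPKM values, numbered 14532453 to 16963019 per library. As deposited, the values compare libraries through a size factor, and the median log2 fold change of the 16791 genes tested, knockout minus control, was -0.41. That median became 0.71 when each library's FPKM were rescaled to a sum of 1000000, 0.42 with reads so rescaled and 0.53 under quantile normalization, so directions of moderate size depend on the scaling. Markers of elongating spermatids took 1.64 to 1.75% of the control reads and 0.0123 to 0.0131% of the knockout reads. Markers of spermatogonia took 0.0136 to 0.0250% and 0.196 to 0.243%. The marker levels of germ cell stages therefore differed between groups that share 1 cell type label, and in such bulk samples fewer cells of a type and less RNA per cell cannot be told apart. Separate animals are not stated for the libraries, so spreads and p-values describe these libraries and may be technical.

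In the controls the 10 genes formed an upper group of 6 and a lower group of 4. The highest was Actg1 at 395 ± 45.8 FPKM (SD, n = 3), followed by Actl9 at 348 ± 30.4, Actrt2 at 278 ± 26.1, Actb at 218 ± 14.3, Actl7a at 187 ± 11.8 and Actg2 at 169 ± 28.2 FPKM. Far below came Actrt3 at 26.3 ± 2.96, Actrt1 at 24.2 ± 2.67 and Acta2 at 19.1 ± 7.37 FPKM, and Actl7b was listed at 0. The control values of Actg1 and Actl9 overlapped, as did those of Actl7a and Actg2, of Actrt3 and Actrt1, and of Actrt1 and Acta2. The other neighbours in this order did not overlap. A smooth muscle actin gene thus stood level with a testis actin-like gene, and the testis gene Actl9 level with cytoplasmic Actg1.

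**Figure D1:**
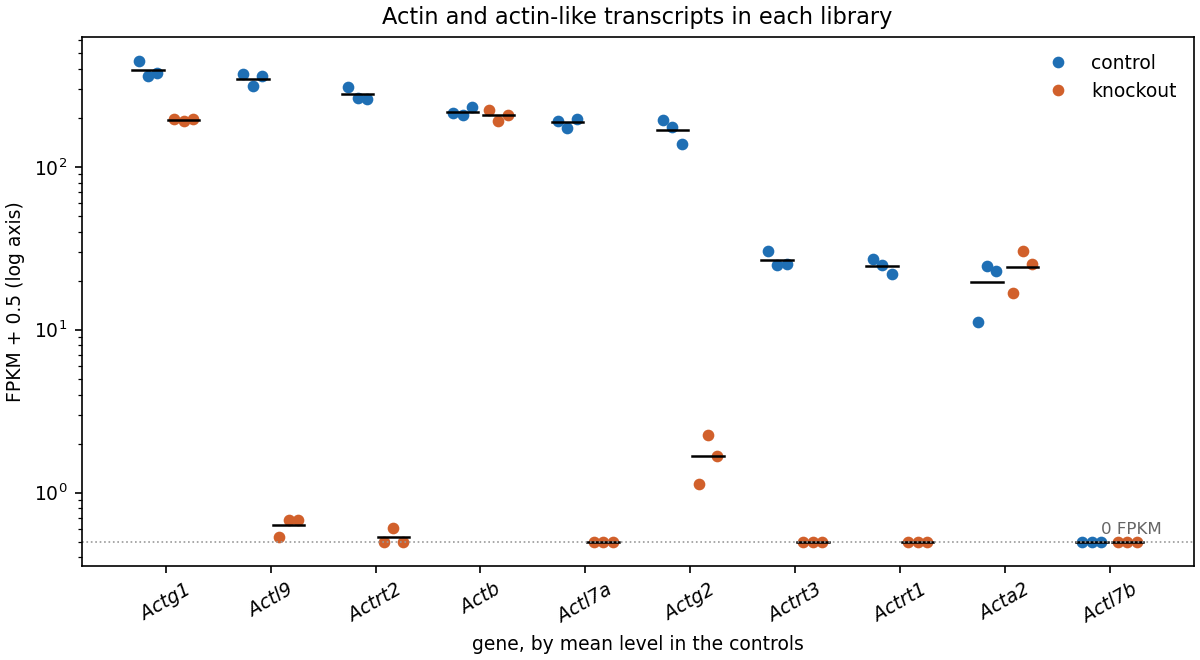
Level of each of the 10 genes in each library, as FPKM + 0.5 on a log axis; blue points are the 3 control and orange points the 3 knockout libraries, black lines are group means and the dotted line is 0 FPKM. Actg2 sits at 138 to 194 FPKM in the controls, against 0.623 to 1.75 FPKM in the knockout, while Acta2 and Actb overlap between the groups and Actl7b lies at 0 throughout.

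In the knockout the order was different. Actb at 208 ± 16.6 FPKM and Actg1 at 194 ± 3.64 FPKM overlapped and stood first, Acta2 followed at 23.6 ± 6.91 FPKM, and Actg2 had 1.18 ± 0.561 FPKM. Actl9 had 0.130 ± 0.0833 FPKM, and Actrt2 gave 3 reads in knockout library 2 and none in the other 2. Actl7a, Actl7b, Actrt1 and Actrt3 had no read in any knockout library. Of the 10 genes, 9 passed the filter of a mean of 1 FPKM over the 6 libraries; 7 of these were called lower in the knockout and 0 higher by limma at an adjusted p of 0.05. The background is 50.4% of all genes tested called lower, 36.2% called higher and 86.6% called in either direction. After rescaling FPKM to a sum of 1000000, 9109 of the 16791 genes tested were called higher and 6084 lower. For the same 7 genes every knockout library lay below every control library, which held for 51.1% of the genes tested, and for 0 every knockout library lay above, against 36.9%. Nothing is read from these counts, since this difference chose the genes.

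Shares within a library do not depend on how libraries are scaled against each other. In the controls the testis actin-like genes made up 51.9 ± 0.967% of the summed FPKM of the 10 genes (SD, n = 3), the cytoplasmic actins 36.8 ± 0.469% and the smooth muscle actins 11.3 ± 1.42%. In the knockout the cytoplasmic actins made up 94.1 ± 1.94%, the smooth muscle actins 5.85 ± 1.91% and the testis genes 0.0390 ± 0.0305%. Within the smooth muscle pair the 2 shares went opposite ways: that of Actg2 went from 10.1 ± 1.46% to 0.280 ± 0.140%, and that of Acta2 from 1.17 ± 0.506% to 5.57 ± 1.77%. Actb went from 13.1 ± 1.21% to 48.6 ± 2.46% and Actg1 from 23.7 ± 1.14% to 45.5 ± 0.524%, so the ratio of Actb to Actg1 was 0.476, 0.569 and 0.624 in the controls, against 1.14, 1.01 and 1.07 in the knockout. The summed FPKM itself was 1664 ± 114 in the controls, against 427 ± 12.8 in the knockout as deposited. As this sum fell, a gene that kept its deposited level gained share. The FPKM of Acta2 and of Actb overlapped between the groups, so their larger shares are not read as rises in level.

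**Figure D2:**
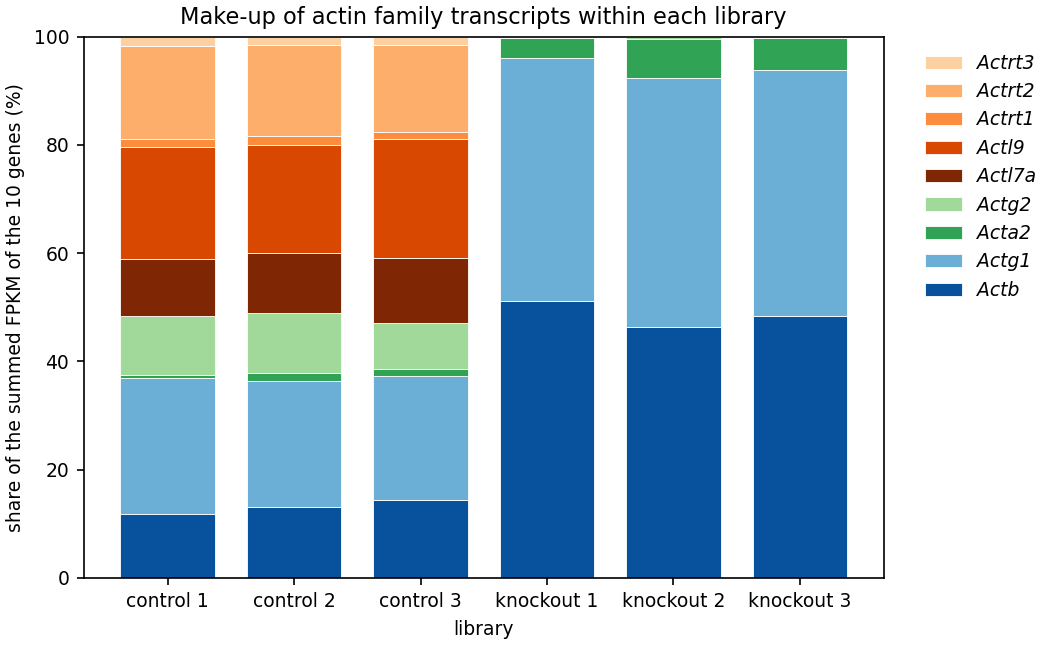
Share of each gene in the summed FPKM of the 10 genes, in percent, for each of the 6 libraries; each stacked bar is 1 library. The orange and brown testis genes fill 51.0 to 52.9% of the control bars and at most 0.0686% of the knockout bars, and light green Actg2 shrinks with them while dark green Acta2 does not.

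The testis actin-like genes are described first. ACTL7A and ACTL9 anchor the acrosome to the nucleus of the spermatid, and the ACTRT proteins are parts of the perinuclear theca, the rigid shell between acrosome and nucleus. In mm10, the build of the deposited coordinates, Actl7a (ENSMUSG00000070979) lies at chr4:56743413-56744925 on the forward strand. Actl7b lies beside it at chr4:56740005-56741443 on the reverse strand, with 1969 bases between the 2 genes. Actl9 is on chromosome 17, Actrt1 on the X chromosome, Actrt2 on chromosome 4 and Actrt3 on chromosome 3. In GENCODE M21 the main transcripts of Actl7a, Actl7b, Actl9, Actrt1 and Actrt2 consist of 1 exon and that of Actrt3 of 2, against 6 exons for Actb and Actg1 and 9 for Acta2 and Actg2.

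RefSeq (GRCm38.p6) gave promoters for 8 of the 10 genes. The 150 bases before the start site of the 6 testis genes are shown because 5 of them have few or no reads left in the knockout. Capitals mark the word TGATGTCA, a one-base variant of the cyclic AMP response element, and the word GTTGCCA, in either strand; both words were chosen after these sequences had been read.
Actl7a, chr4:56743272-56743421, forward strand: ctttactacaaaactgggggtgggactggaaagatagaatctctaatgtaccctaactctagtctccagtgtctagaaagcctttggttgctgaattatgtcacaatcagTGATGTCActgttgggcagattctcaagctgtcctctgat
Actl7b, chr4:56741426-56741575, reverse strand: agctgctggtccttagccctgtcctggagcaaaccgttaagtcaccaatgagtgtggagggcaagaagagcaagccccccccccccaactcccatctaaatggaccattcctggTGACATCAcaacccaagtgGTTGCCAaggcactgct
Actl9, chr17:33432749-33432898, forward strand: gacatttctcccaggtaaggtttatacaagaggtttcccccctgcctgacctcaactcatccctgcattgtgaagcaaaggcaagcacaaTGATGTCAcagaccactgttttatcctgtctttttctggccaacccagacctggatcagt
Actrt1, chrX:46328857-46329006, forward strand: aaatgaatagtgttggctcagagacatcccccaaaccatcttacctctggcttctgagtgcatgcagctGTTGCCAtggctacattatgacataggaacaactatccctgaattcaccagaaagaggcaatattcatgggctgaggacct
Actrt2, chr4:154667868-154668017, reverse strand: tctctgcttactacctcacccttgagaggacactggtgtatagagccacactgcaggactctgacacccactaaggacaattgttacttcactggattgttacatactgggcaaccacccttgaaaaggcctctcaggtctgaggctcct
Actrt3, chr3:30599871-30600020, reverse strand: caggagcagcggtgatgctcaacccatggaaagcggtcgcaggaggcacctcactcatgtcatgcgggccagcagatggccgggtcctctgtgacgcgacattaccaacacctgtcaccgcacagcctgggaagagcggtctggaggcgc

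Counting from the first base of the word to the start site, TGATGTCA stands 40 bases before the start of Actl7a and 60 bases before that of Actl9, and on the opposite strand 36 bases before that of Actl7b. In the 250 bases before the start, 2.93% of all 32851 promoters of the table hold this word on either strand and 3.66% hold GTTGCCA, which stands in the promoters of Actl7b and Actrt1. The full palindrome TGACGTCA was in none of the 8 promoters (1.55% of all promoters hold it). TATAAA was in that of Actl9 alone (12.4% of all). The testis promoters of Actl9, Actrt1 and Actrt2 contain 0 CG pairs, that of Actl7a 1, that of Actl7b 4 and that of Actrt3 12, where the median of all promoters is 6 and the promoter of Actg1 holds 43. These matches describe letters, not binding sites.

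Actl7a had 190.1, 173.8 and 196.7 FPKM in control libraries 1 to 3 and 0 in all 3 knockout libraries. Its 10010 control reads against none make it at least 5883-fold lower, with the floor for no read set at 3 reads over the group. Actl9 had 370.5, 313.5 and 360.2 FPKM in the controls, against 0.0337, 0.180 and 0.176 FPKM in the knockout. Its knockout values rest on 1, 5 and 5 reads, and the scaled ratio of control to knockout was 2701 with an exact 95% interval of 1509 to 5412, which covers counting error only. Actrt2 had 307.9, 263.3 and 262.2 FPKM in the controls, against 0, 0.103 and 0 FPKM in the knockout, a ratio of 8248 on 3 knockout reads with an interval of 2822 to 39998. All 3 are abundant control transcripts, of which the knockout libraries kept 11 reads or fewer.

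Actrt1 had 26.7, 24.5 and 21.4 FPKM in the controls, and Actrt3, which encodes a nuclear actin-related protein of spermatids, had 29.8, 24.6 and 24.7 FPKM. Both were at 0 in every knockout library, at least 672-fold and at least 1067-fold lower. On the log2(FPKM + 0.5) scale the 5 testis genes tested had log2 fold changes of -9.12 ± 0.128 (Actl9; SE), -9.03 ± 0.120 (Actrt2), -8.55 ± 0.0953 (Actl7a), -5.74 ± 0.128 (Actrt3) and -5.62 ± 0.130 (Actrt1). The smaller values of Actrt3 and Actrt1 follow from the pseudocount, since with all knockout libraries at 0 the value is set by the control level. In the controls Actl9 over Actl7a was 1.95, 1.80 and 1.83, and Actrt2 over Actl7a was 1.62, 1.51 and 1.33. Actrt3 over Actl7a was 0.157, 0.141 and 0.126, and Actrt1 over Actl7a was 0.140, 0.141 and 0.109, so these ratios varied by up to 1.30 times between libraries. None of the 5 shared a 50-base word of its transcripts with the transcripts of any other gene in GENCODE M21.

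Actl7b, the neighbour and closest relative of Actl7a, was listed at 0 FPKM in all 6 libraries, against 173.8 to 196.7 FPKM for Actl7a in the controls. In GENCODE M21 its exon is 90.9% covered by Gm26657 (chr4:56740070-56741377), a coding gene on the opposite strand that was also listed at 0 in all 6 libraries. Other genes of this kind share the zeros. Of 60 coding genes whose exons were at least 90% covered by exons on the opposite strand, 80.0% (48 genes) had no read in any library, against 9.07% of the 21678 coding genes with less than 90% of their exon bases covered by exons of any other gene. Pfn3, a testis profilin and partner of ACTRT3, is 100% covered in the same way and was also at 0. The zeros of Actl7b and Pfn3 are therefore not read here as absence of the transcripts, and Actl7b gives no information on the comparison. Whether the authors' counting dropped reads in such overlaps was not tested.

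The smooth muscle genes are the pair on which the question turns. Acta2 (ENSMUSG00000035783) lies at chr19:34241090-34255336 and Actg2 (ENSMUSG00000059430) at chr6:83512905-83536265, both on the reverse strand and both with 9 exons. Their coding sequences, 1134 and 1131 bases long, are 84.2% identical, and Actb and Actg1 are 88.7% identical. The first 60 coding bases of the 4 conventional actins, read from GENCODE M21 transcripts (GRCm38, all on the reverse strand), are shown because they tell how well reads of Actg2 and Acta2 can be told apart. Capitals mark bases that differ from the aligned Acta2 base or stand opposite a gap.
Acta2: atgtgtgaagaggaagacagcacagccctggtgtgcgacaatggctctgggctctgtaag
Actg2: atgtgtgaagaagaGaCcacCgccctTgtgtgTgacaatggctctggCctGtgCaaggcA
Actb: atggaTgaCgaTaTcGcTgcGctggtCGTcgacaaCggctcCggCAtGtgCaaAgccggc
Actg1: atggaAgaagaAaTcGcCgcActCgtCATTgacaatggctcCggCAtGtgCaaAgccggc

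Over the whole transcripts, 0 of 1592 50-base words of Actg2 and 0.326% of those of Acta2 (7 of 2146 words) occurred in transcripts of another gene, and Actg2 and Acta2 shared 0. Reads of that length from one would not match the other exactly; the 7 shared words of Acta2 were shared with Actg1. Actg1 differed in this respect: 37.4% of its 50-base words and 29.9% of its 100-base words occurred elsewhere, mostly in the processed pseudogene Gm12715. That pseudogene had 9.92 to 12.1 FPKM in the controls, against 4.07 to 5.99 FPKM in the knockout, small against Actg1, and its reads and those of Actg1 are uncertain to that extent. The sources used here give neither the read length nor the treatment of reads with several matches.

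Actg2 had 193.9, 174.4 and 138.3 FPKM in the controls, against 0.623, 1.75 and 1.18 FPKM in the knockout. The groups lay far apart, on 9249 control reads and 114 knockout reads (21, 55 and 38 by library). The scaled ratio of control to knockout was 143 with an exact 95% interval of 119 to 174 for counting error, and the log2 fold change was -6.70 ± 0.248 (SE). Among all genes tested, 3.12% had a lower log2 fold change than Actg2.

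Acta2 had 10.7, 24.2 and 22.6 FPKM in the controls, against 16.2, 29.8 and 24.9 FPKM in the knockout. The groups overlapped, and in both of them library 1 was lowest. The log2 fold change was 0.34 ± 0.333 (SE) as deposited and -0.03 without control library 1. The same value was 1.52 with FPKM rescaled to sum to 1000000, 1.23 with reads so rescaled and 1.32 under quantile normalization. The ratio of Actg2 to Acta2 within a library needs no scaling: it was 18.1, 7.21 and 6.13 in the controls, against 0.0385, 0.0585 and 0.0474 in the knockout. Of the reads of both genes together, Actg2 gave 94.1, 86.3 and 84.3% in the controls, against 3.26, 4.87 and 3.98% in the knockout. The exact (Clopper-Pearson) 95% intervals, for counting error only, reached down to 83.0% in the controls and up to 6.29% in the knockout. The difference in log2 fold change between Actg2 and Acta2 was -7.03, and it lay between -7.55 and -6.56 under every alternative run, the scalings included. A factor on a whole library cancels in this difference apart from the pseudocount, so the rescalings of FPKM and reads are no check on it.

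Actg2 was low in the knockout like the testis genes, though less completely. It kept 114 knockout reads where the 5 measured testis genes kept 0 to 11 each. Its ratio to Actl9 went from 0.523, 0.556 and 0.384 in the controls to 18.5, 9.70 and 6.70 in the knockout. These knockout ratios rest on 1, 5 and 5 reads of Actl9, so their size is uncertain. The level of Actg2 relative to Actl7a in the controls was 1.02, 1.00 and 0.703. The summed level of the 12 round spermatid markers was 1682 to 2109 FPKM in the controls, against 3.45 to 5.83 FPKM in the knockout. The 14 pachytene and diplotene markers summed to 7708 to 9147 FPKM in the controls, against 117 to 164 FPKM in the knockout. The 12 elongating spermatid markers summed to 19182 to 22357 FPKM, against 12.6 to 16.5 FPKM. Which of these stages Actg2 goes with was not tested. Which cells held the remaining Actg2 reads was not tested.

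The genes most like Actg2 and Acta2 over the 6 libraries were different ones. Likeness was the Euclidean distance between log2(FPKM + 0.5) values centred on each gene's mean, over 16790 other genes, and a large group difference dominates it. The 5 coding genes nearest to Actg2 were Dnajb3, a testis chaperone of the DnaJ class, 1700020L24Rik, 4833427G06Rik, Banf2 and Mgat4d, at distances of 0.380 to 0.498. Dnajb3 had 665 ± 114 FPKM in the controls, against 6.26 ± 1.22 FPKM in the knockout, so it too kept a residue. The other neighbours had knockout means of 0.171 to 0.354 FPKM, below the pseudocount of 0.5. Their nearness therefore depends on the pseudocount. Among the 10 genes the nearest were Actrt3 at 1.39, with 644 genes nearer, and Actrt1, with 725 nearer, and the farthest was Acta2 at 8.69. The place of Actrt3 and Actrt1 rests on the pseudocount as well, since both are at 0 in every knockout library. With a pseudocount of 1 the log2 fold change of Actg2 was -6.30, and those of Actl7a, Actrt3 and Actrt1 were -7.55, -4.77 and -4.65, so that Actl7a was nearest to it by fold change.

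The 5 coding genes nearest to Acta2 were Eln, the elastin gene, Mfap4, a protein of elastic microfibrils, the tropomyosin gene Tpm2, Myh11, the smooth muscle myosin heavy chain, and the amino acid transporter gene Slc38a5, at distances of 0.162 to 0.429. Myh11 had 1.57, 4.06 and 2.84 FPKM in the controls, against 1.79, 4.24 and 3.22 FPKM in the knockout, with library 1 lowest in each group, as for Acta2.

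**Figure D3:**
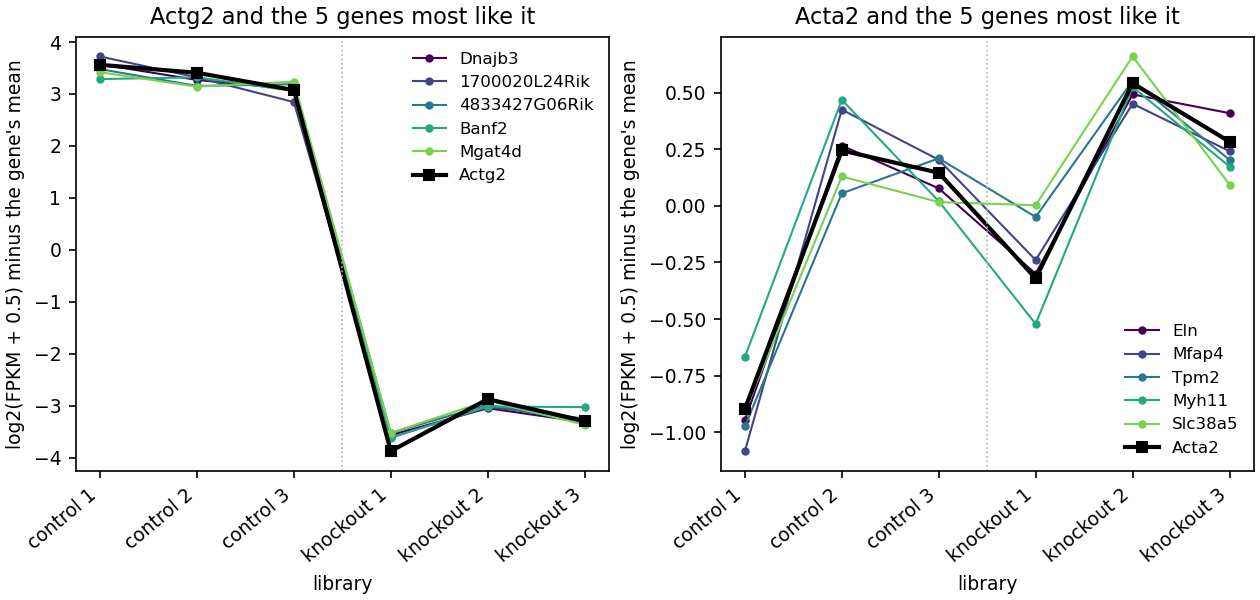
Level in each of the 6 libraries relative to the gene's own mean, on the log2(FPKM + 0.5) scale, for Actg2 (left) and Acta2 (right) in black and the 5 coding genes nearest to each in color; the dotted line parts controls from knockout, and the vertical axes differ. Actg2 and its neighbours drop by 6 to 7 log2 units between the groups, while Acta2 and its neighbours vary by under 2 log2 units and are lowest in control library 1.

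A list of 15 smooth muscle contractile genes, which marks peritubular myoid cells and vascular smooth muscle alike, did not fall as Actg2 did. Of the 9 genes tested and reported, 3 rose and 6 did not pass limma's test, with a median log2 fold change of 0.47 against -0.41 for all genes. Cnn1, which encodes calponin, had 1.31 ± 0.598 and 0.995 ± 0.349 FPKM in controls and knockout (adjusted p = 0.481), desmin (Des) had 0.968 ± 0.457 and 1.24 ± 0.149 FPKM (adjusted p = 0.293), and Myh11 had an adjusted p of 0.756. The myosin light chain gene Myl9, Tpm2 and the myosin light chain kinase gene Mylk, with log2 fold changes of 0.75, 0.47 and -0.02, had limma adjusted p values of 0.0786, 0.202 and 0.887; under the 3 other scalings the value of Mylk was 0.64 to 1.13. Smtn, or smoothelin, rose from 0.566 ± 0.218 to 2.27 ± 0.171 FPKM (adjusted p = 0.000225) and the LIM protein gene Csrp1 from 6.50 ± 1.81 to 16.7 ± 0.862 FPKM. Filamin A (Flna) rose from 4.99 ± 1.17 to 10.2 ± 1.17 FPKM. Flna and Csrp1 are also expressed outside muscle. After rescaling FPKM to a sum of 1000000, 8 of these 9 genes were called higher, as were 9109 of all 16791 genes tested.

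The summed level of the smooth muscle list was 26.7, 53.2 and 53.8 FPKM in the controls, where library 1 was low as for Acta2, and 75.2, 78.1 and 69.2 FPKM in the knockout. Markers of other cells also moved with the groups. All 13 Sertoli markers tested rose, and their summed level was 277 to 480 FPKM in the controls, against 889 to 1451 FPKM in the knockout. Of the macrophage markers 4 of 9 rose and 0 fell (9 were called higher with FPKM rescaled, 1 without control library 1 or control library 3, and 7 without knockout library 2), of the stromal markers 5 of 6 rose and 0 fell, and of the Leydig markers 2 of 8 rose and 4 fell (1 was called lower with FPKM rescaled). The macrophage markers summed to 61.1, 105 and 77.7 FPKM in the controls, against 317, 98.4 and 123 FPKM in the knockout. These sums overlapped, and knockout library 1 stood apart. Endothelial markers summed to 3.49 to 4.14 FPKM in the controls, against 2.30 to 2.64 FPKM in the knockout, and 0 of 7 passed the filter. The part of these cells in the levels of Acta2, Actb and Actg1 was not tested.

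The cytoplasmic actins are expressed by germ and somatic cells alike. Actb (chr5:142903115-142906754, reverse strand) had 212.8, 206.4 and 233.7 FPKM in the controls, against 224.4, 191.3 and 208.2 FPKM in the knockout. The groups overlapped, with a log2 fold change of -0.07 ± 0.0979 (SE). Actg1 (chr11:120345690-120348542, reverse strand) had 447.3, 362.5 and 374.8 FPKM in the controls, against 197.0, 190.1 and 195.5 FPKM in the knockout, and the groups did not overlap. Its log2 fold change was -1.02 ± 0.104 (SE) as deposited. Both directions depend on the scaling. After rescaling FPKM to a sum of 1000000 the values were 1.12 for Actb and 0.17 for Actg1, with reads so rescaled 0.85 and -0.10, and under quantile normalization 1.76 and 0.78. Relative to the median of all genes as deposited they were 0.35 and -0.60. The shift between the 2 genes, seen above in their ratio, hardly can change when a whole library is multiplied by a factor. The rescalings of FPKM and reads are therefore no check on it. Quantile normalization, which is not such a factor, also gave Actb the higher value.

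**Figure D4:**
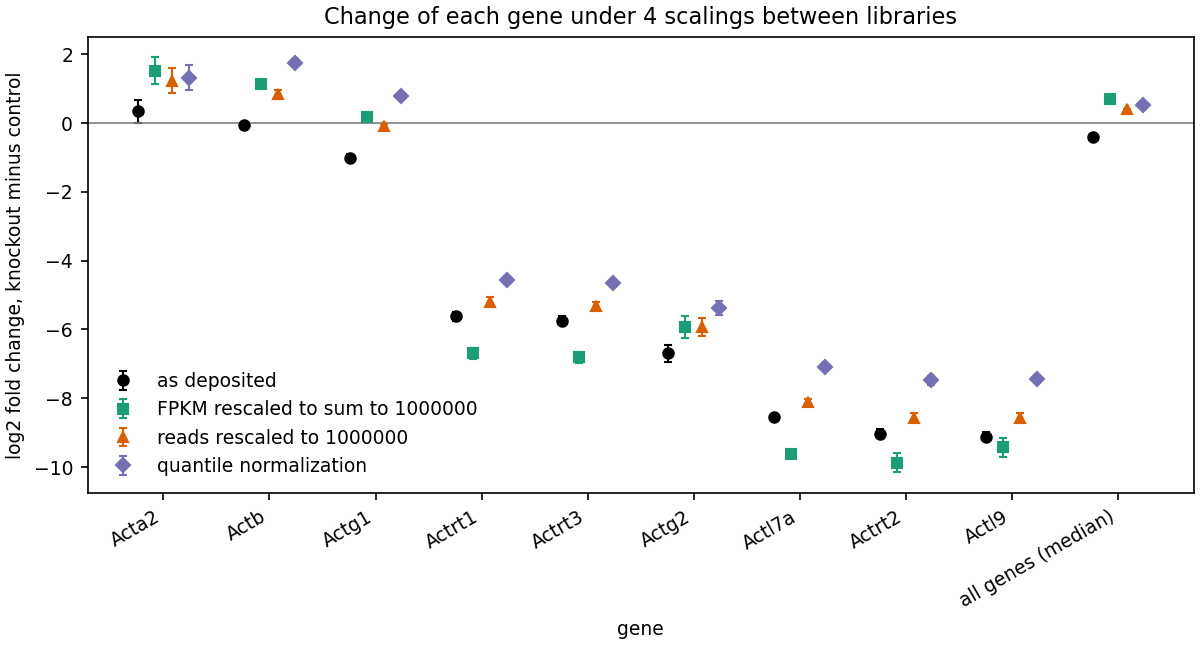
Log2 fold change of each gene, knockout minus control, with its standard error as bars, as deposited (black circles) and under 3 other scalings between libraries; the last position gives the median of all genes tested. Actb and Actg1 cross 0 with the scaling, whereas Actg2 and the 5 testis genes stay below -4 under all 4.

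Neighbouring genes were looked up for position alone and are named here after their values were seen. Acta2 has Stambpl1, a deubiquitinase gene, 756 bases away, and Actg2 has Dguok, the gene of a mitochondrial deoxyguanosine kinase, 5935 bases away on one side and Stambp, a paralog of Stambpl1, 6945 bases away on the other. Stambpl1 fell from 16.0 ± 3.38 to 0.172 ± 0.0239 FPKM beside Acta2, whose groups overlapped, and Stambp fell from 9.51 ± 1.22 to 1.51 ± 0.184 FPKM beside Actg2, with limma adjusted p values of 8.5e-08 and 1.3e-06. Dguok rose from 1.24 ± 0.428 to 3.60 ± 0.278 FPKM (limma adjusted p = 0.00045). The coding neighbours of Actb (Fbxl18), Actl7a (Ikbkap) and Actrt3 (Mynn) also rose, with log2 fold changes of 1.18, 1.98 and 0.82. The noncoding 0610009L18Rik starts 135 bases from Actg1 on the other strand. It had 118.3 to 171.2 FPKM in the controls, against 3.20 to 4.48 FPKM in the knockout. The antisense 4930515L19Rik, 95 bases from Actrt1, had 1.37 to 3.37 FPKM in the controls and 0 in every knockout library.

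The rest of the actin family held testis genes that fell and common genes that went either way. Of 16 further actins and actin-related genes 12 were tested. As deposited 3 rose and 7 fell, where 36.2% of all genes tested rose and 50.4% fell. With FPKM rescaled to sum to 1000000 the counts were 6 and 5, against 9109 and 6084 of all 16791 genes tested. No trait of the family is read from these counts. Actl11, another testis actin-like gene, had 162, 144 and 144 FPKM in the controls and 0 in every knockout library, and Actl10 fell from 20.2 ± 2.88 to 0.120 ± 0.153 FPKM. Actr1a, the actin-related backbone of dynactin, fell from 164 ± 11.8 to 31.2 ± 2.23 FPKM and Actr10, at the pointed end of the same filament, from 52.8 ± 6.41 to 7.89 ± 0.229 FPKM. The limma adjusted p values of these 4 were 9.4e-10, 1.0e-07, 1.2e-07 and 1.2e-07. The 3 that rose were Actr2, Actr3 and Actr3b, all Arp2/3 complex genes and here named as the full set of rises: Actr3 rose from 11.7 ± 0.288 to 35.4 ± 1.43 FPKM. Other subunit genes of that complex, named after their values were seen, went either way as deposited. Arpc1b, Arpc3, Arpc4 and Arpc5 rose, Arpc2 and Arpc5l fell, and Arpc1a was not called. The muscle actins Acta1 and Actc1 were at most 0.370 and 0.153 FPKM in any library, so Actg2 was the highest of the 4 muscle actin genes in the controls.

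Partners of the testis actins and other proteins of the spermatid head fell with them. Of 19 genes tested in this list of 20, 17 fell, 0 rose and 2 did not pass (16 were called lower and 3 higher with FPKM rescaled), with a median log2 fold change of -7.06. Calicin (Ccin), an actin-binding protein of the theca, fell from 118 ± 7.37 to 0.0170 ± 0.0294 FPKM, Capza3, the testis form of an actin capping protein, from 173 ± 19.7 to 0.0216 ± 0.0374 FPKM, and Plcz1, the sperm phospholipase that activates the egg, from 196 ± 18.9 to 0.0263 ± 0.0455 FPKM, each with a limma adjusted p of 1.0e-09. Tssk2, a testis kinase, fell from 367 ± 41.7 to 0.516 ± 0.110 FPKM. Ccin, Capza3 and Plcz1 had no read in knockout libraries 1 and 3, so their log2 values there are the pseudocount alone. The list was chosen with earlier results of these data known, so these p-values are a description. The summed level of the list was 2764 to 3427 FPKM in the controls, against 29.3 to 36.3 FPKM in the knockout.

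Genes of the wider list of actin regulators were divided. Of 51 genes in the list 50 had a row and all were tested. As deposited 26 rose and 17 fell, with a median log2 fold change of 0.62. With FPKM rescaled to sum to 1000000 the counts were 40 and 6, against 9109 and 6084 of all 16791 genes tested. The 4 with the smallest p all fell: Cap2, a cyclase-associated protein, from 23.5 ± 3.75 to 0.668 ± 0.0809 FPKM, the capping protein subunits Capza1, from 79.9 ± 6.29 to 9.23 ± 1.11 FPKM, and Capzb, from 94.3 ± 3.60 to 31.7 ± 1.81 FPKM, and the thymosin Tmsb10, from 401 ± 32.2 to 64.0 ± 7.36 FPKM. The fall of Capzb was lost under quantile normalization, at a log2 fold change of -0.12.

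The serum response factor SRF drives actin and smooth muscle genes when monomeric actin is scarce and its coactivators of the MRTF family are free. In a list of 10 genes of this route and its targets, 9 were tested, 6 rose and 2 fell. Srf and Mkl1, the 2 that fell, are named after their values were seen. Srf itself fell from 27.9 ± 3.31 to 19.0 ± 0.784 FPKM and Mkl1, which encodes MRTF-A, had 11.8 to 15.5 FPKM in the controls, against 7.04 to 9.12 FPKM in the knockout, while Mkl2, which encodes MRTF-B, rose from 4.50 ± 0.474 to 8.14 ± 0.636 FPKM. Both falls turned into called rises with FPKM rescaled to sum to 1000000, where all 9 tested genes were called higher and 0 lower. Under that scaling 9109 of all 16791 genes tested were called higher and 6084 lower. The ETS partners Elk1 and Elk4 rose from 0.443 ± 0.0816 and 1.45 ± 0.449 FPKM to 2.62 ± 0.137 and 5.92 ± 0.337 FPKM, and vinculin (Vcl) rose from 3.98 ± 0.970 to 10.9 ± 0.555 FPKM.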

How the data were processed

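RNA from mouse testis cells labelled STRA8+ was sequenced in 3 control and 3 knockout libraries, grouped and numbered by their titles. The authors deposited FPKM values with gene lengths and coordinates; the submitters' processing notes name HISAT2 2.0.5 and mm10. The counter, the strand setting and the treatment of reads with several matches are not stated there. FPKM times gene length gave whole multiples of 1 read (within 0.01 read) for 100% of nonzero values. The divisor matched a size factor (median of ratios over 19526 genes) times the geometric mean of the totals, 0.691 to 0.774 times the total in the controls and 1.37 to 1.42 times in the knockout.

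For genes whose mean over the 6 libraries was 1 FPKM or more, log2(FPKM + 0.5) was compared with limma 3.58.1 (R 4.3.3), as knockout minus control, with a mean-variance trend, Benjamini-Hochberg adjustment over all genes and a threshold of 0.05. The code was tested on simulated libraries. The 10 genes and all lists were chosen with earlier results of these data known. Besides the 10, the text names up to 4 genes with the smallest p per list, the tested smooth muscle genes, the 5 coding genes nearest to Actg2 and to Acta2, and genes marked as named after their values were seen; 1 gene of the smooth muscle list is not reported here and is left out of that list's counts. Alternatives were other pseudocounts (0.1, 1), filters, scalings, limma voom on the recovered reads, a replicate block and leaving out each library. Promoters are RefSeq's, and coding sequences and exons are those of GENCODE M21, whose gene start and end match the table for 53499 of 54409 shared genes; the table's Acta2 is shorter than GENCODE's. Sequences were compared with Python 3.11.15 and biopython 1.88.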

Additional observations from a re-analysis of the deposited data

How the results depend on the processing

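The 7 falls among the 10 genes were called under the other pseudocounts, filters, limma voom and each left-out library, and 6 of them (all but Actg1) under the 3 other scalings. The number called higher, 0 as deposited, was 2 after rescaling either FPKM or reads, 3 under quantile normalization and 1 with the replicate number as a block (Acta2). The numbers are not a pairing by the labels, and same-numbered libraries did not deviate together (correlations of deviations of -0.12, -0.05 and -0.04); the block gave 5930 higher and 8364 lower of all genes, against 6075 and 8462. A filter at 5 FPKM gave 3227 and 5320. FPKM rescaled, reads rescaled and quantile normalization gave 9109, 8491 and 8745 higher and 6084, 6527 and 6187 lower of all genes. Signs were followed for the 10 genes, the tested further actins and smooth muscle genes, and up to 4 genes per list. Srf and Mkl1, which reversed with FPKM rescaled, are therefore not among those given next. Reversed signs with FPKM rescaled, reads rescaled and quantile normalization, in that order, were 1.12, 0.85 and 1.76 for Actb, 1.11, 0.80 and 0.60 for Actr5, 0.93, 0.65 and 0.71 for Actr6 and 1.13, 0.81 and 0.64 for Mylk; Actg1 reversed to 0.17 and 0.78 in the first and last, Actr8 to 0.10 in the first, and Cnn1 to 1.05 in the last. In the same order, further actin-related genes called higher were 6, 6 and 6, smooth muscle genes called higher 8, 7 and 8, head and partner genes called higher 3, 3 and 2, and SRF-related genes called lower 0, 0 and 0; actin regulators called lower were 6, 7 and 6, and called higher 40 in the first and last. The difference between Actg2 and the median of the testis genes, 1.85 on the log2 scale, was 3.51 and 1.25 with pseudocounts of 0.1 and 1, 3.49 with FPKM rescaled and 4.20 with limma voom. The median gene was Actl7a as deposited and with a pseudocount of 1, and Actl9 with a pseudocount of 0.1, FPKM rescaled and limma voom. Actl7a had no knockout read and Actl9 had 11, so in each setting the median rests on knockout values at or near 0. Such values depend on the offset added before the logarithm. How much of each move this makes up was not tested. Leaving out each library gave 1.62 to 2.12. The fall of Actr6 was lost under most alternatives. The folds of Actl7a, Actrt1 and Actrt3, with no knockout read, are lower bounds set by the chosen floor of 3 reads over the group.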
